A study of Mus musculus with 4 samples.

Results

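Peaks of 2 enzyme subunits, KMT9alpha and KMT9beta, and of the histone mark H4K12me1 (histone H4 with a single methyl group on lysine 12) were examined at 9 mouse genes of epidermal growth factor (EGF) receptor, RAS and RAF signalling. The genes are Egfr, Erbb2 and Erbb3, which encode receptors, Areg, Ereg and Hbegf, which encode ligands, Hras and Nras, which encode small GTPases, and Braf, which encodes a kinase. They were taken by name from the 21853 protein-coding genes on chromosomes 1 to 19, X and Y, and all 9 were found. The ChIP-seq libraries came from organoids of a mouse colorectal tumour made with azoxymethane and dextran sulfate sodium (AOM/DSS), a single clone (clone 3) at passage 14, whose genotype is entered as NA. Treatment was described as 1 µM tamoxifen and vehicle, with no word on which of them each library received. The culture medium held EGF at 50 ng/ml, so a ligand of this pathway was present in the cultures. Each antibody had 1 library, so no value has a replicate check and no test between libraries was made. An input library was not analysed here, and sequencing depth is unknown.

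KMT9alpha and KMT9beta are the subunits of the methyltransferase KMT9, which places H4K12me1. In the pathway studied here, EGF family ligands are made as membrane-bound precursors and released by proteases, bind receptors of the EGFR and ERBB family, and through adaptors and exchange factors load RAS with GTP. Active RAS recruits RAF kinases, which start the MEK and ERK cascade, and ERK targets include inhibitors that feed back on it. In the gut this signalling drives growth of crypt cells, and EGF is a standard additive of intestinal organoid medium.

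The peak lists held 26146 KMT9alpha, 90349 KMT9beta and 60289 H4K12me1 peaks on the chromosomes used. Each peak carries a score given by the authors, and the sources used here do not say how it was computed. The score was read only within a list, as the percentage of peaks of that list with a lower score (score percentile, ties divided evenly). In the KMT9alpha list 19.2% of peaks have a score of 3100 or more, most of them tied at 3100, and that tie lies at percentile 90.1. Of 8 colon epithelial marker genes, 6 (Cdh1, Cdx1, Epcam, Krt18, Krt8 and Vil1) had promoter peaks of all 3 libraries and Krt20 had none. Of 4 fibroblast, 2 endothelial and 4 immune marker genes none had all 3. Of the fibroblast genes 2 had KMT9beta and none the others, and of the immune genes 1 had KMT9beta and none the others. Of the endothelial genes 2 had KMT9beta, 1 had KMT9alpha and 1 had H4K12me1. Over all protein-coding genes 35.5% had promoter peaks of all 3, 29.6% had none and 65.1% had KMT9beta. The marker sets are small and were not matched to each other or to all genes, so they do not identify a cell type. These are peaks, not expression.

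A promoter was taken as 1 kb either side of any start of a protein-coding transcript. KMT9alpha had a promoter peak at 9 of the 9 genes, against 54.2% of all protein-coding genes. KMT9beta had one at 8 of the 9, Ereg being the exception, against 65.1%. H4K12me1 was called at 4 of the 9, namely Erbb2, Erbb3, Hbegf and Hras, which is close to the 44.9% of all genes. These 4 genes carried all 3 libraries, a combination found at 35.5% of genes. Egfr, Areg, Nras and Braf carried both subunits and no H4K12me1 peak, a combination found at 15.5% of genes. No member lacked a promoter peak of every library, as 29.6% of all genes did. With peaks at or above the median score of their list, or with lists of equal length, the 4 genes with H4K12me1 and with all 3 became 2, Erbb2 and Hras.

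**Figure D1:**
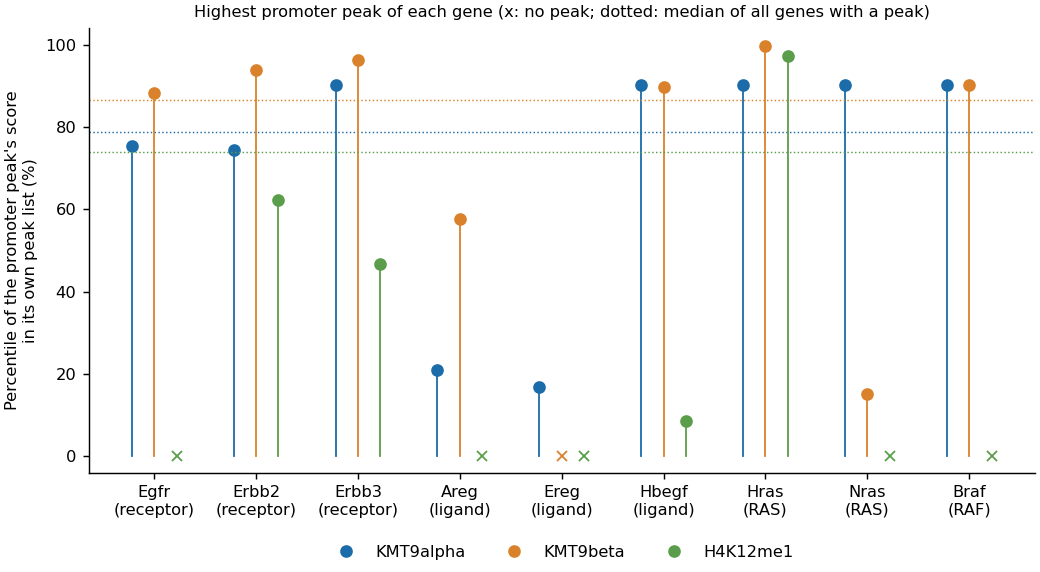
Score percentile (%) of the highest promoter peak of each of the 9 genes in the KMT9alpha, KMT9beta and H4K12me1 lists, 1 library each. A cross marks a gene with no promoter peak in that list, and dotted lines mark the median over all protein-coding genes with a peak. Hras has the highest KMT9beta and H4K12me1 values, Areg and Ereg are low for KMT9alpha, and Nras is at 90.1 for KMT9alpha and at 15.0 for KMT9beta.

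The scores of the peaks varied widely between members, also for the subunits, which had a peak at all or nearly all of them. The KMT9alpha score was 3100 at Erbb3, Hbegf, Hras, Nras and Braf, 5 of the 9 genes, against 24.7% of all genes with a score that high. It was 2039.62 at Egfr and 1880.25 at Erbb2, and low in the list at Areg (183.76) and Ereg (177.79). The median score percentile of the 9 KMT9alpha peaks was 90.1, and that of the 11854 genes with such a peak was 78.9. For KMT9beta the 8 genes had a median percentile of 90.0, with a range from 15.0 at Nras to 99.8 at Hras, and the 14219 genes with a peak had a median of 86.5. For H4K12me1 the 4 genes had a median of 54.4, with a range from 8.6 at Hbegf to 97.2 at Hras, and the 9820 genes with a peak had a median of 73.9. Strong KMT9alpha peaks thus stood beside weak, strong and absent H4K12me1 peaks.

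At the receptors, Egfr, the receptor for EGF itself, lies on chromosome 11 (16752203 to 16918158, forward strand, mm10). Its KMT9alpha peak ran from 16751718 to 16753453 with a score of 2039.62 (percentile 75.4), and its KMT9beta peak from 16751790 to 16753429 with a score of 222.56 (percentile 88.2). The KMT9beta peak lay wholly inside the KMT9alpha peak. Both reached the promoter windows of transcripts Egfr-201 and Egfr-202, while the window of the internal start of transcript Egfr-203 had no peak. No H4K12me1 peak was called at the promoter. Erbb2, a receptor without a known ligand of its own that pairs with the other family members, lies on the same chromosome (98412470 to 98437716, forward strand). It scored 1880.25 for KMT9alpha (percentile 74.4), 310.62 for KMT9beta (percentile 93.9) and 89.05 for H4K12me1 (percentile 62.3). Its H4K12me1 peak, 574 bp wide, covered bases 376 to 949 after the start, so it lay entirely downstream of the start and inside the KMT9beta peak.

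Erbb3, a neuregulin receptor with little kinase activity of its own, lies on chromosome 10 (128567523 to 128589652, reverse strand). It scored 3100 for KMT9alpha (percentile 90.1), 384.7 for KMT9beta (percentile 96.3) and 77.84 for H4K12me1 (percentile 46.6). Its KMT9alpha peak was 2301 bp wide, the widest KMT9alpha promoter peak of the 9 genes, and reached 1341 bp upstream. The H4K12me1 peak covered positions -988 to -416 and so lay wholly upstream of the start, on the other side of it from the mark at Erbb2. At both receptors the mark sat inside the KMT9beta peak and took up about the same width, 573 bp at Erbb3 and 574 bp at Erbb2. Both widths lie near the narrow end of the H4K12me1 list, with width percentiles of 14.5 and 15.1. In the score order of KMT9alpha the receptors ran Erbb3, Egfr, Erbb2, and in that of KMT9beta Erbb3, Erbb2, Egfr. With 1 library per antibody no spread is known for either order.

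The 200 bases before the start of Egfr and Erbb3 are printed, 5′ to 3′ on the gene's strand, as the stretch under both subunit peaks that holds no annotated exon. They come from the RefSeq genome of GRCm38.p6, the assembly behind mm10, at chr11:16752003-16752202 (forward strand) and chr10:128589653-128589852 (reverse strand). Capitals mark, on either strand, a GC box (GGGCGG), an AP-1 site (TGANTCA), a full cyclic AMP response element (CRE, TGACGTCA) or a TATA box (TATAAA).
Egfr: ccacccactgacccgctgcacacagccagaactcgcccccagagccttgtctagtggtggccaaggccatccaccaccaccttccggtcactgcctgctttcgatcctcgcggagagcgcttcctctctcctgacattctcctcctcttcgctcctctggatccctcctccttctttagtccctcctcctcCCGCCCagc
Erbb3: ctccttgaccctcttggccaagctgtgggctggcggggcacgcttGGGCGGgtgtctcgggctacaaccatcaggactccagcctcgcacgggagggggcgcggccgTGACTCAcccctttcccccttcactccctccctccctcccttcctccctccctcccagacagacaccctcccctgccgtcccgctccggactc
Neither stretch held TATAAA or TGACGTCA. Positions are those of a motif's leftmost base as printed, counted back from the start, so that the last base printed is the one next to it. Egfr had a GC box at -9, on the opposite strand, and Erbb3 had one at -155 and an AP-1 match at -93. A GC box occurred in this window at 38.32% of 21853 promoters and an AP-1 match at 4.68%. A match of letters is a description of the sequence and not a mapped binding site.

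Areg and Ereg, which encode amphiregulin and epiregulin, ligands of EGFR that are expressed in many colorectal tumours, had the lowest KMT9alpha scores of the 9 genes. Areg lies on chromosome 5 (91139599 to 91148432, forward strand) and scored 183.76 for KMT9alpha (percentile 20.9) and 97.93 for KMT9beta (percentile 57.7), with no H4K12me1 peak. Ereg, also on chromosome 5 (91074622 to 91093646, forward strand), scored 177.79 for KMT9alpha (percentile 16.8) and had no KMT9beta or H4K12me1 peak. Their KMT9alpha peaks were also narrow, 780 bp and 629 bp, against 1170 to 2301 bp at the other 7 genes. Both covered the annotated start, from -293 to 486 at Areg and from -213 to 415 at Ereg. Low KMT9alpha scores are uncommon at promoters: 437 genes had a promoter peak under percentile 25, and 82.4% of those also had KMT9beta and 62.0% H4K12me1. Ereg thus lacked a partner that most genes with a KMT9alpha score this low had, and Areg and Ereg both lacked the mark.

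The upstream sequence of Areg, at chr5:91139399-91139598 (forward strand), is shown because it differs from those of the receptors in the elements next to the start. Capitals have the same meaning as above.
Areg: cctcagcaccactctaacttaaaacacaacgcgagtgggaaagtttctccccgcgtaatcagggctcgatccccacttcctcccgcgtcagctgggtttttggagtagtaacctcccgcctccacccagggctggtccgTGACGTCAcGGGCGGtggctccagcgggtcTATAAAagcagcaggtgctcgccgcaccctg
Areg had TATAAA at -31, a GC box on the forward strand at -52 and a full CRE at -61. TATAAA on the gene's strand beginning between -40 and -20 was found at 525 of 21853 genes (2.4%). Of these 525 genes 19.4% had a KMT9alpha promoter peak, against 55.1% of the genes without the motif there. Within the class of promoters with the same CpG content as Areg (defined further on) the shares were 30.2% of 43 genes and 64.7% of 4328. Where a KMT9alpha peak was present, its median score percentile was 72.4 with the motif and 78.9 without it, and 62.6 and 69.3 within that CpG class, so the percentile of 20.9 at Areg lay below each of these medians. This motif window was set after the sequence had been seen.

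Areg and Ereg belong to a cluster of EGF family ligand genes on chromosome 5, with Epgn (epigen) before them and Btc (betacellulin) after them, and no other protein-coding gene was annotated in the 378 kb from Epgn to Btc. Along the cluster the promoters carried no peak at Epgn, KMT9alpha alone at Ereg, both subunits at Areg and all 3 at Btc. The KMT9alpha scores were 177.79 at Ereg, 183.76 at Areg and 941.17 at Btc, and the KMT9beta scores were 97.93 at Areg and 184.0 at Btc. Btc scored 79.68 for H4K12me1. The whole span held 4 KMT9alpha, 5 KMT9beta and 5 H4K12me1 peaks, of which 3, 2 and 1 lay at promoters. Between Ereg and Areg a further KMT9alpha peak (91097869 to 91098525) scored 210.33, higher than at either promoter. Between Epgn and Ereg a KMT9beta peak (91061125 to 91062026) and an H4K12me1 peak (91061187 to 91062045) overlapped each other, with no KMT9alpha peak there.

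Hbegf, which encodes heparin-binding EGF-like growth factor, lies on chromosome 18 (36504927 to 36515805, reverse strand). Its values were unlike those of Areg and Ereg. It scored 3100 for KMT9alpha (percentile 90.1), 239.55 for its highest KMT9beta peak (percentile 89.7) and 64.0 for H4K12me1 (percentile 8.6). Besides the KMT9beta peak over the start, 1498 bp wide, it had a KMT9beta peak on either side that reached into the promoter window, with scores of 109.12 upstream and 86.24 downstream. Its H4K12me1 peak covered positions -4 to 593 and was among the weakest of its list. Of 3964 promoters with H4K12me1 and a KMT9alpha score of 3100 or more, 324 (8.17%) had a mark as weak as this or weaker. Among the 3 ligand members the mark was called at Hbegf alone, near the lowest score of its list, 50.

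**Figure D2:**
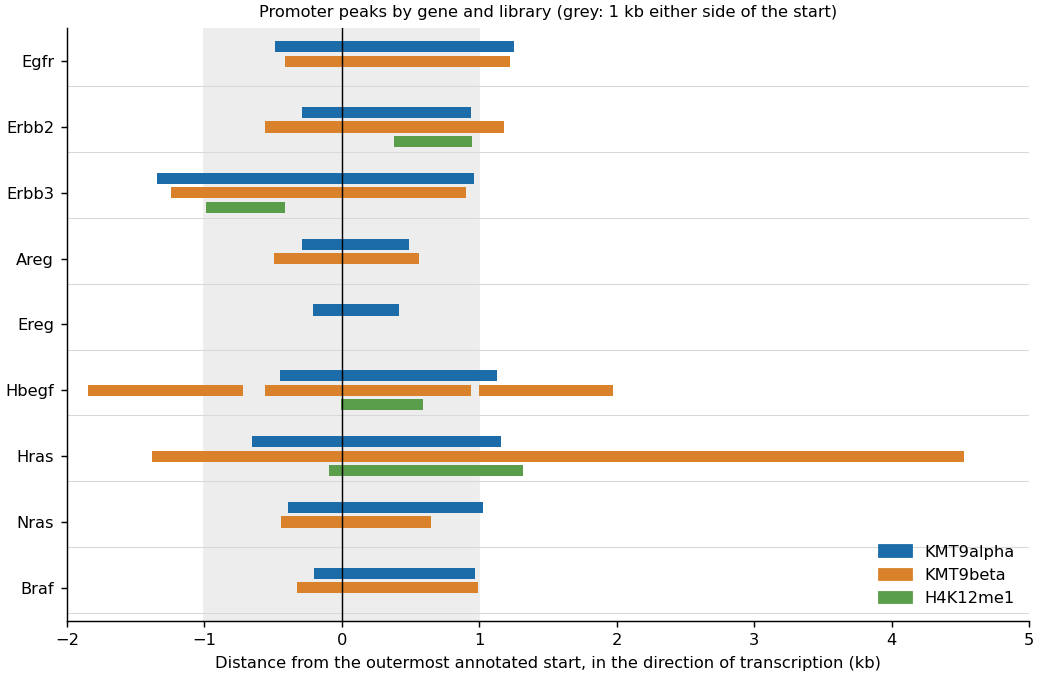
Extent of every promoter peak of the 9 genes, in kb from the outermost annotated start in the direction of transcription, for KMT9alpha, KMT9beta and H4K12me1. Subunit peaks cover the start at all genes that have them, while H4K12me1 lies after the start at Erbb2, before it at Erbb3, and along the first part of the gene at Hbegf and Hras.

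Hras, a small GTPase downstream of the receptors, had the highest KMT9beta and H4K12me1 scores of the 9 genes and was tied with 4 others for KMT9alpha. It lies on chromosome 7 (141189105 to 141194005, reverse strand), is 4.9 kb long and has 4 distinct annotated starts. It scored 3100 for KMT9alpha (percentile 90.1), 919.06 for KMT9beta (percentile 99.8) and 269.28 for H4K12me1 (percentile 97.2). Its KMT9beta peak was 5908 bp wide and covered 92.4% of the gene, and 294 of the KMT9beta peaks (0.325%) are as wide or wider. KMT9alpha kept to the promoter, from -651 to 1154, and H4K12me1 ran from -92 to 1319. All 3 peaks also reached the promoter of Lrrc56, the neighbouring gene, so they cannot be assigned to Hras alone. Hras was the only one of the 9 genes that shared a promoter peak with another protein-coding gene.

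Nras, the other RAS member, combined a KMT9alpha score of 3100 with a KMT9beta peak near the bottom of its list. It lies on chromosome 3 (103058285 to 103067914, forward strand), and both peaks reached the promoter windows of all its 5 distinct starts. KMT9alpha covered 103057897 to 103059312, and KMT9beta, with a score of 57.53 (percentile 15.0), covered 103057844 to 103058933. No H4K12me1 peak was called. Of the 5405 promoters with a KMT9alpha score of 3100 or more, 98.4% had a KMT9beta peak, and in these the median KMT9beta percentile was 92.4. Of those 5320 promoters, 22 (0.414%) had a KMT9beta percentile as low as that of Nras. This comparison was chosen after the value had been seen. Hras and Nras thus had tied KMT9alpha scores and the highest and lowest KMT9beta scores of the 8 genes with a KMT9beta peak.

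Braf, the RAF kinase that active RAS recruits, lies on chromosome 6 (39603237 to 39725463, reverse strand). It scored 3100 for KMT9alpha (percentile 90.1) and 246.57 for KMT9beta (percentile 90.3), with no H4K12me1 peak. Its KMT9alpha peak, 1170 bp wide, lay wholly inside the KMT9beta peak of 1317 bp, and both reached the promoter windows of the 2 distinct starts. Among promoters with a KMT9alpha score of 3100 or more, 73.3% had H4K12me1, and Braf and Nras are the members of that class without it. The 200 bases before its start, chr6:39725464-39725663 (reverse strand), had the most CpG sites of the sequences printed, 23, against 15 at Areg, 12 at Erbb3 and 9 at Egfr.
Braf: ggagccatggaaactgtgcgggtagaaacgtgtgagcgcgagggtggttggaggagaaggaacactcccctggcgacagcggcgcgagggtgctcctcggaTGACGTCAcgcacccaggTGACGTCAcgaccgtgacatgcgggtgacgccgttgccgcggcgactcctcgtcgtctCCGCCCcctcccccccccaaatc
The stretch held a full CRE at -99 and another at -81, and a GC box on the opposite strand at -23. A full CRE occurred in this window at 412 of 21853 promoters (1.89%), 2 of them being Areg and Braf. Of these 412 promoters 76.0% had KMT9alpha, 81.8% KMT9beta and 53.6% H4K12me1. The same element thus stood at Areg, with a KMT9alpha percentile of 20.9, and at Braf, with 90.1.

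Where both subunits were called at a promoter of the 9 genes, their highest peaks overlapped in 8 of 8 genes, and over all genes with both this held for 93.7%. The overlap made up 100% of the KMT9alpha peak at Erbb2, Areg, Hras and Braf, and 94.5% at Egfr, 93.3% at Erbb3, 88.3% at Hbegf and 73.2% at Nras. The highest H4K12me1 peak overlapped both subunit peaks in 4 of 4 genes, against 86.8% of all genes for KMT9alpha and 87.1% for KMT9beta. It lay wholly inside the KMT9beta peak at each of the 4 and covered 45.8% of the KMT9alpha peak at Erbb2, 24.9% at Erbb3, 37.9% at Hbegf and 69.0% at Hras. The mark was thus narrower than the peaks of both subunits at each of these promoters, and widest at Hras, 1412 bp. This is also the general order: over all genes with a promoter peak the median width was 766 bp for H4K12me1, 1357 bp for KMT9alpha and 1467 bp for KMT9beta.

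CpG content was set beside these scores because CpG-rich promoters carry the subunits more often. The CpG observed to expected ratio within 1 kb of the start was 0.38 at Ereg and 0.53 at Areg, 0.59 to 0.64 at Egfr, Erbb2, Erbb3, Hbegf and Nras, 0.73 at Hras and 0.78 at Braf, with a median of 0.48 over all genes. With all genes divided into 5 equal classes by this ratio, KMT9alpha was present at 64.4% of the class of Areg and Ereg, 85.4% of the class of the 5 intermediate members and 92.5% of the class of Hras and Braf. KMT9beta was present at 77.4%, 91.2% and 96.4% of these classes, and H4K12me1 at 48.9%, 63.0% and 72.9%. The median KMT9alpha percentile of these classes was 69.3, 78.8 and 90.1. Across the 11854 genes with a KMT9alpha promoter peak, Spearman's rho between the CpG ratio and the score percentile was 0.48, over genes that share 1 library and are not independent. Areg and Ereg lay far below the median of their own CpG class, and Egfr (75.4) and Erbb2 (74.4) a little below that of theirs. Nras and Erbb3 had similar ratios, 0.64 and 0.61, and KMT9beta percentiles of 15.0 and 96.3.

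**Figure D3:**
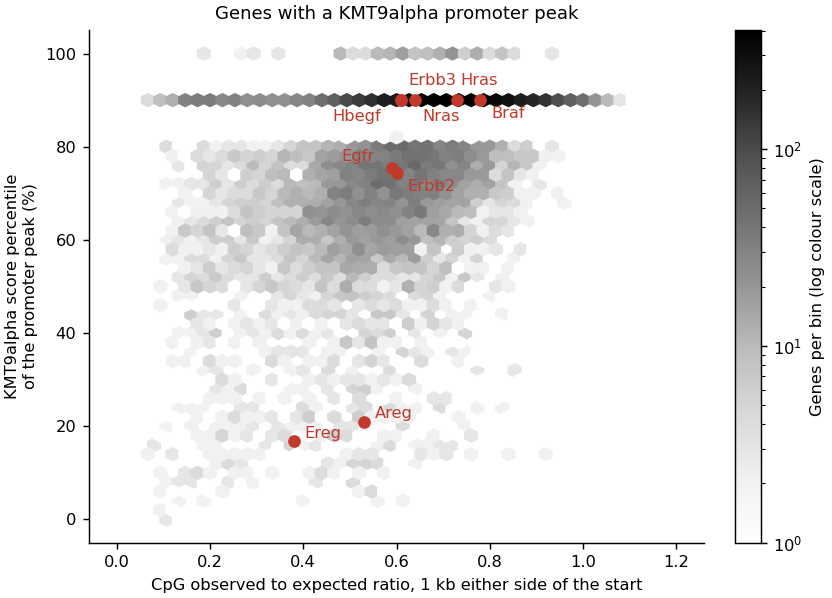
KMT9alpha score percentile (%) of the highest promoter peak against the CpG observed to expected ratio of the promoter, for the 11854 genes with such a peak (grey bins, log colour scale) and the 9 genes (red). The row at 90.1 holds the peaks tied at 3100, with 5 of the 9 genes in it, and Areg and Ereg lie at 20.9 and 16.8.

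Peaks inside the gene, outside its promoter windows, divided the genes in another way. KMT9beta and H4K12me1 had gene body peaks at the same 3 genes, Erbb2, Erbb3 and Hbegf, against 49.5% and 41.0% of all genes. How many of all genes had both was not counted, so the shared set is only described. With peaks at or above the median score of their list, or with lists of equal length, Hbegf dropped out of both counts, and Erbb2 and Erbb3 were left. KMT9alpha had gene body peaks at 2, Egfr and Erbb3, against 19.8%. Long genes collect more peaks, so each gene is given beside its length class, all genes having been divided into 5 equal classes. Areg, Ereg, Hras, Nras and Braf had no gene body peak of any library. The same held for 78.0% of genes of the length class of Hras, 53.5% of that of Areg and Nras, and 38.5% of that of Ereg. At Hras this is no absence of peaks inside the gene, which is 4.9 kb long with 4 distinct starts. Its KMT9beta peak covered 92.4% of it and was counted at the promoter. For Braf, 122.2 kb long, the lack of gene body peaks set it with 16.3% of the genes of its length class.

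Erbb2 had the most gene body peaks of the 9 genes, 8 of KMT9beta and 5 of H4K12me1, and none of KMT9alpha. In its length class (25080 to 58103 bp) 8.99% of genes had as many KMT9beta peaks and 10.7% as many H4K12me1 peaks. All KMT9beta peaks together, the promoter peak included, covered 44.0% of the gene, against a median of 4.7% for the class, and H4K12me1 covered 17.7% against 2.0%. As much was covered in 4.35% and 3.8% of the genes of the class. The strongest KMT9beta body peak, with a score of 229.73 (percentile 88.8), had its midpoint in intron 12 and spanned a pair of H4K12me1 peaks whose midpoints lay in coding exons 12 and 14. The strongest H4K12me1 body peak, with a score of 167.01 (percentile 90.5), lay in intron 8 and overlapped a KMT9beta peak with a score of 65.8. It and 2 other H4K12me1 body peaks (126.72 and 110.46) scored higher than the mark at the Erbb2 promoter, 89.05. The last H4K12me1 peak had its midpoint in the untranslated part of exon 27, the last exon, and overlapped the KMT9beta peak around coding exon 26. Of the 5 H4K12me1 body peaks 4 overlapped KMT9beta, and the exception lay in intron 1. The share of such overlaps over all genes was not taken, and KMT9beta covers much of this gene.

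Erbb3 was the only member with gene body peaks of all 3 libraries, 1 of KMT9alpha and 4 each of KMT9beta and H4K12me1. The KMT9alpha peak scored below the median of its list, so with peaks at or above that median KMT9alpha body peaks were left at 1 gene, Egfr. The 3 libraries met in 1 place, about 6 kb after the start, where KMT9alpha (128583129 to 128583771, score 249.65, midpoint in coding exon 6) overlapped a KMT9beta peak of score 176.95 and an H4K12me1 peak of score 88.47, both with midpoints in intron 4. In its length class 18.9% of genes had as many KMT9alpha body peaks, 14.3% as many of KMT9beta and 7.28% as many of H4K12me1. Here 2 of the H4K12me1 body peaks scored higher than the mark at the promoter, 106.84 and 88.47 against 77.84. Of the 4 H4K12me1 body peaks 3 overlapped KMT9beta, which covered 23.3% of the gene. Here too the share over all genes was not taken.

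Hbegf had 3 weak KMT9beta body peaks, with scores of 57.74 to 66.28 and midpoints in introns 3, 4 and 5, and 1 H4K12me1 peak of score 64.86 in intron 2. None of these overlapped another gene body peak of the gene, although the H4K12me1 peak lay under the downstream KMT9beta peak that reaches its promoter window. KMT9beta covered 37.2% of Hbegf in all, against a median of 9.8% for its length class, of which 22.2% were covered as much. Egfr, the longest of the 9 genes at 166.0 kb, had no KMT9beta or H4K12me1 body peak, as was the case for 17.2% of genes of its length class. It had 2 neighbouring KMT9alpha peaks in intron 1, about 38 kb after the start, at 16789818 to 16790385 (score 210.13) and 16790731 to 16791633 (score 430.09). As many KMT9alpha body peaks were found at 18.2% of genes of the length class of Egfr. KMT9alpha peaks without KMT9beta are common away from promoters, at 5447 of 14273 (38.2%). The related receptor genes therefore differed in the gene body, with 13 peaks in Erbb2, 9 in Erbb3 and 2 in Egfr. No library was shared between the body peaks of Erbb2 and Egfr. In the length class of Erbb2 only 24.2% of genes had a KMT9alpha body peak, so its absence there is common.

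**Figure D4:**
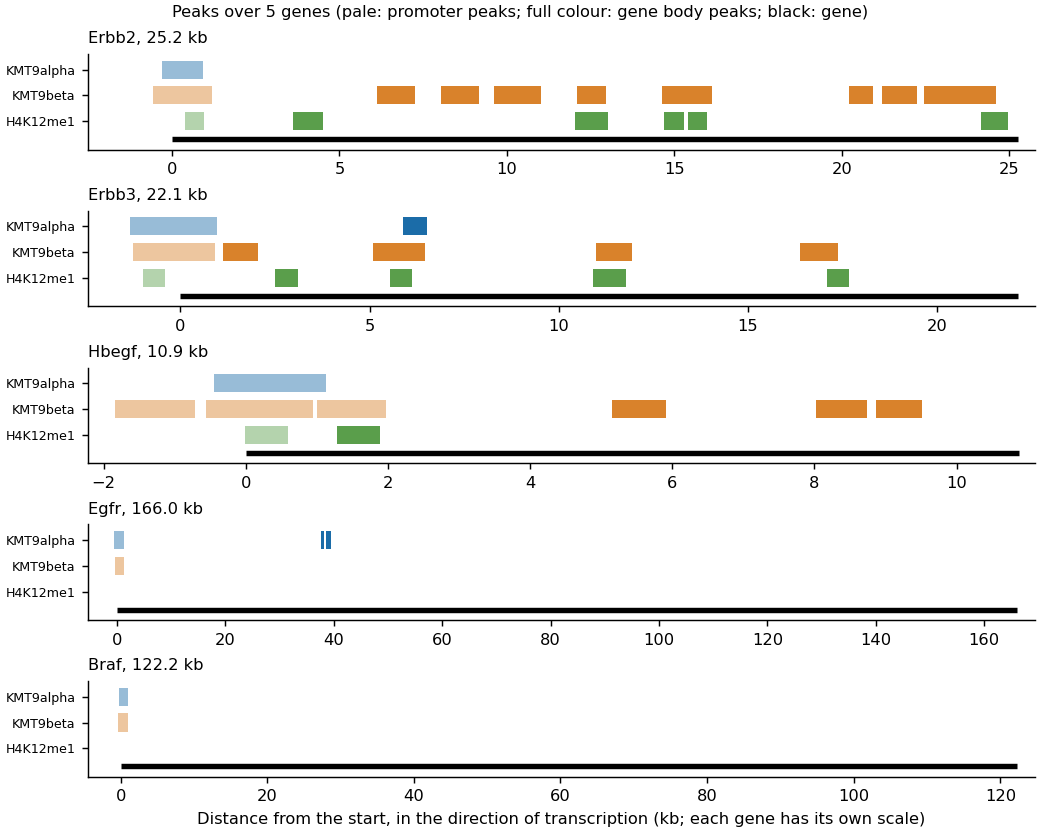
Peaks over Erbb2, Erbb3, Hbegf, Egfr and Braf in kb from the start in the direction of transcription, each gene on its own scale, with promoter peaks pale and gene body peaks in full colour. KMT9beta and H4K12me1 run through Erbb2 and Erbb3, Egfr has only the KMT9alpha peaks in intron 1, and Braf has none outside its promoter.

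The other genes of the pathway were taken from a list of 51 in 9 role classes. KMT9alpha was present at 46 of their promoters (90.2%), KMT9beta at 49 (96.1%), H4K12me1 at 40 (78.4%) and all 3 at 38 (74.5%), and 1 had none (1.96%). Over all protein-coding genes these shares were 54.2%, 65.1%, 44.9%, 35.5% and 29.6%. Both subunits without H4K12me1, the state of 4 of the 9 genes, were found at 7 of the 51 (13.7%), against 15.5% of all genes. The KMT9alpha score was 3100 or more at 30 (58.8%), against 24.7% of all genes. In the highest of the 5 CpG classes, all 3 were present at 68.5% of genes and a KMT9alpha score this high at 67.2%. The list was not matched to all genes in CpG content. The median score percentiles were 90.1 for KMT9alpha, 94.6 for KMT9beta and 78.3 for H4K12me1. Over all genes with a peak they were 78.9, 86.5 and 73.9.

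By role, of 8 ligand genes 4 had KMT9alpha, 7 had KMT9beta, 4 had H4K12me1 and 3 had all 3, with Tgfa (3100, 352.77 and 109.42 for KMT9alpha, KMT9beta and H4K12me1) the strongest and Epgn the one without a peak. Of 4 other receptor genes, 3 had all 3, among them Fgfr2 (3100, 857.49 and 142.05) and Igf1r. Erbb4, the remaining ERBB family gene, had KMT9alpha (254.7, percentile 42.7), KMT9beta (127.72, percentile 71.2) and no mark. It was named after its values had been seen. Adaptors and exchange factors, which link receptors to RAS, had all 3 at 5 of 6, including Gab1 and Grb2. RAS relatives and GTPase-activating proteins had all 3 at 4 of 6, including Mras (3189.06, 327.2 and 149.88) and Nf1. Of the 3 RAF relatives and scaffolds 3 had KMT9alpha, 2 had KMT9beta and 2 had all 3, including the scaffold gene Ksr1 (1005.92, 302.41 and 171.4). All 4 MEK and ERK genes had all 3, including Map2k2 (3100, 630.38 and 82.91). Feedback inhibitors had both subunits at 10 of 10 and the mark at 8, including Dusp4 and Dusp5, phosphatases that act on MAP kinases. Of the genes of ligand release, 3 of 4 had all 3, including Rhbdf2 (3227.04, 679.03 and 242.47) and the protease gene Adam10. The nuclear targets had all 3 at 6 of 6, including the transcription factor genes Egr1 (3100, 750.48 and 211.15) and Etv4. These role counts stand beside 35.5% of all genes with all 3, and 68.5% of genes in the highest CpG class.

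**Figure D5:**
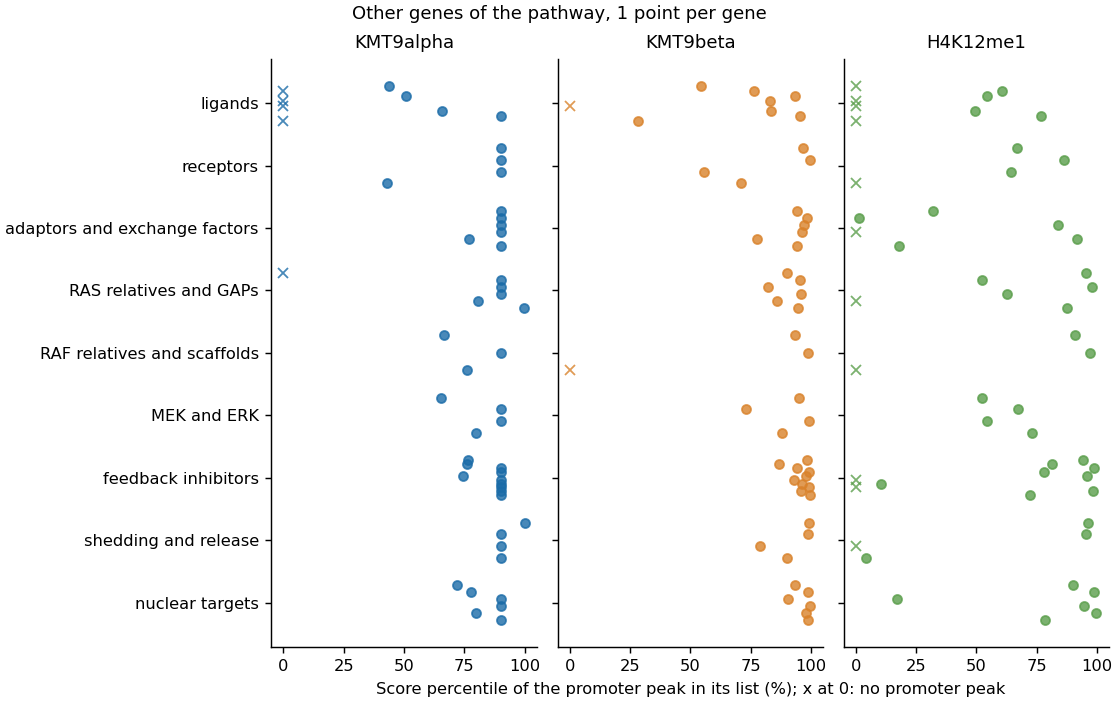
Score percentile (%) of the highest promoter peak of each of the 51 other pathway genes by role, with 1 panel per library and 1 point per gene. A cross at 0 marks a gene without a promoter peak, and 4 of the 8 ligand genes have one in the KMT9alpha panel.

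Likeness of the members to other pathway genes was measured by the Euclidean distance between the 3 score percentiles, with 0 for no peak, over 3 libraries of 1 sample each. Braf was nearest to Spry2 (distance 3.0), Hbegf to Adam10 (4.3), Egfr to Rras (5.7) and Erbb3 to Rasa1 (5.9). Erbb2 was nearest to Map2k1 (13.3), Ereg to Epgn (16.8), Nras to Araf (20.5) and Areg to Nrg4 (23.2). Both genes nearest to Ereg and Areg are ligand genes, but this says little about role. Epgn has no promoter peak and was coded 0 in every list, so the distance of 16.8 is the KMT9alpha percentile of Ereg itself. The distances of Nras and Areg are the largest, and no gene of the 51 came within 20 of either.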

How the data were processed

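The members and gene lists were chosen with earlier results of these data known, and support nothing by their choice. ChIP-seq libraries for KMT9alpha, KMT9beta and H4K12me1 (1 each) were mapped to mm10. The labels' protocols name STAR and the submitters' processing notes name Bowtie2. Versions, peak threshold and control were not stated in the sources used here. Deposited lists hold a position and a score per peak, with names beginning with MACS per the file contents. The authors' score was used only to rank peaks within a list. Peaks outside chromosomes 1 to 19, X and Y (81, 124 and 120) were left out. BED starts were converted to 1-based positions.

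Genes were those of GENCODE M21 with a protein-coding transcript. An overlap needed at least 1 shared bp. A gene body peak overlapped the gene and none of its own promoter windows. CpG and motifs were read from the RefSeq genome of GRCm38.p6, in which no peak passed a chromosome end. Of the 9 genes all matched by symbol. All 9 genes are named, and of each pathway class up to 2 genes with all 3 libraries and the highest KMT9alpha score, up to 2 with none, and the nearest gene by percentiles. Some items that these rules pick are left out. The overlap steps, tested on simulated data of 300 genes and 1500 peaks, recovered 100% of planted pairs. No p-value was computed. Alternatives changed the promoter window, the peaks admitted (by score or by equal list length), the transcripts and the overlap rule. Python 3.11.15, numpy 2.4.6, pandas 2.3.3 and matplotlib 3.10.9 were used.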

Additional observations from a re-analysis of the deposited data

How the results depend on the processing

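Of 41 alternative values for 8 counts, 36 stayed within 1.5 times the reported count. With peaks at or above the median score of their list, H4K12me1 was left at 2 of the 9 promoters and all 3 libraries at 2, the genes lost being Erbb3 and Hbegf, and KMT9alpha gene body peaks were left at 1 gene, Egfr. The KMT9beta and H4K12me1 lists were also shortened to their 26146 highest peaks, the length of the KMT9alpha list. H4K12me1 and all 3 were then again left at 2, Erbb2 and Hras. The KMT9alpha counts could not change under equal length, and they are among the 36 values. With the median score or equal length, KMT9alpha was lost at the promoters of Areg and Ereg (median score only), and KMT9beta at those of Nras (both) and Areg (equal length only). Gene body peaks of KMT9beta and of H4K12me1 were lost at Hbegf under both settings. Each of these counts fell from 3 genes to 2, which is still within 1.5 times. Promoters of 500 bp or 5 kb, basic transcripts, midpoints and a shared start changed none of the members' promoter counts they were run on. The pathway genes with all 3 numbered 26 to 43. No paired analysis was possible because each antibody has 1 library. Depth is unknown, so a missing peak means only that none was called above a score of 50.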

Other observations

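Peaks near the genes, within 50 kb of either end and outside every protein-coding promoter, also differed. Erbb2 had 6 KMT9alpha, 20 KMT9beta and 14 H4K12me1 peaks nearby, and 3.42%, 3.51% and 5.22% of all genes had as many, so the peaks inside Erbb2 stand in surroundings that are dense in peaks of all 3 libraries. The medians over all genes were 0, 3 and 2. Erbb3, the other receptor gene with many peaks inside it, had 1, 5 and 4 nearby, and 46.1%, 42.8% and 36.7% of genes had as many. Hras had 2, 8 and 7 such peaks and Hbegf 0, 7 and 5. Nras had 1 H4K12me1 peak and none of the subunits, Areg had 1 KMT9alpha peak only, and Ereg had 1 of each. Egfr had 2 KMT9beta peaks, and Braf had 4 KMT9beta peaks and 1 H4K12me1 peak.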
